A study of Mus musculus with 21 samples.

Results

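PTBP1 (polypyrimidine tract binding protein 1) was deleted in B cells, and its effect was read in germinal centre B cells of the light zone (LZ). The comparison set the 4 LZ libraries of conditional knockout (cKO) mice against the 4 LZ libraries of control mice, for all genes, paired by replicate number, which marks the day of sorting. These are 8 of the 21 samples in the series, which also has 8 dark zone (DZ) libraries and 5 iCLIP libraries of PTBP1. Control mice were CD79a+/+Ptbp1fl/fl and cKO mice were CD79acre/+Ptbp1fl/fl, all C57BL/6, so both genotypes carry the floxed Ptbp1 alleles and only cKO mice carry Cre. All had been immunised with NP-KLH in alum 7 days before sorting, and splenic cells binding antibodies to IgD, CD3e, Gr1 or Ter119 were depleted before the sort. Their ages are not given in the labels. Cells of 3 to 5 mice, alike in sex and genotype, were pooled for each library. Replicates 1 and 2 were male and replicates 3 and 4 were female, so sex goes with the day. Cre replaces part of 1 Cd79a allele and acts throughout the B lineage, so an effect of the Cre allele and an effect of losing PTBP1 cannot be told apart in these groups.

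PTBP1 is an RNA-binding protein that recognises pyrimidine-rich stretches in transcripts. It is best known for repressing the inclusion of exons, and it also acts on 3′ end processing, RNA stability and translation. One of its own targets is the transcript of its paralogue PTBP2, in which it causes an exon to be skipped so that the RNA is degraded. In the light zone of a germinal centre, B cells take up antigen through their receptor, present it to T follicular helper cells, and are selected to divide again in the dark zone or to leave as memory or plasma cells. The need for PTBP1 in that selection is the subject named in the series title.

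Levels are given as CPM (each gene's count scaled to the total of its library). The total of gene counts per LZ library ranged from 26823882 to 34240096, and no 2 libraries of a group agreed within sampling noise (chi-square per degree of freedom 22.2 to 93.5). The libraries matched their label as B cells, since summed CPM of 8 B cell markers was 9810 to 10500 in control and 9880 to 11400 in cKO libraries. The 8 germinal centre B cell markers summed to 1850 to 2370 and 1690 to 2400 CPM, higher in cKO on 1 of 4 days. Of these 8, Mef2b was at most 0.0875 CPM in any library. The zone labels matched too: the light zone marker Cd83 was 1240 to 1630 CPM in the 8 LZ libraries and 237 to 391 CPM in the 8 DZ libraries, and the dark zone marker Cxcr4 was 31 to 43 and 74.2 to 87.9 CPM. RNA of other cells was present at a lower level and was not equal in the groups. The 15 macrophage markers summed to 47.7, 429, 30.9 and 78.6 CPM in controls 1 to 4 and 200, 519, 86.2 and 233 CPM in cKO 1 to 4, higher in cKO on all 4 days, and library 2 was the highest of each genotype. The 13 neutrophil markers summed to 0.459, 15.5, 70.4 and 0.564 CPM in controls 1 to 4 and 29, 57.8, 59.4 and 36.4 CPM in cKO 1 to 4; on day 3 nearly all of it was Mpo and Elane in both genotypes, and Ltf and S100a8 were at 0 there. The 15 T cell markers summed to 337, 613, 382 and 345 CPM in controls 1 to 4 and 360, 600, 518 and 212 CPM in cKO 1 to 4, higher in cKO on 2 of 4 days. Lck was the largest part and fell (-0.59 ± 0.13, adjusted p = 0.045), while the other 14 were positive. Without Lck the sum was 127, 348, 173 and 119.6 CPM in controls 1 to 4 and 212, 410.4, 345 and 107 CPM in cKO 1 to 4, higher in cKO on 3 of 4 days, a sum chosen after the values were seen. The 10 NK cell markers summed to 34.8, 235, 81.9 and 62.1 CPM in controls 1 to 4 and 128, 288, 173 and 79.3 CPM in cKO 1 to 4, higher in cKO on all 4 days. In bulk RNA, a change in the number of cells of a type and a change in RNA per cell cannot be told apart.

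**Figure D1:**
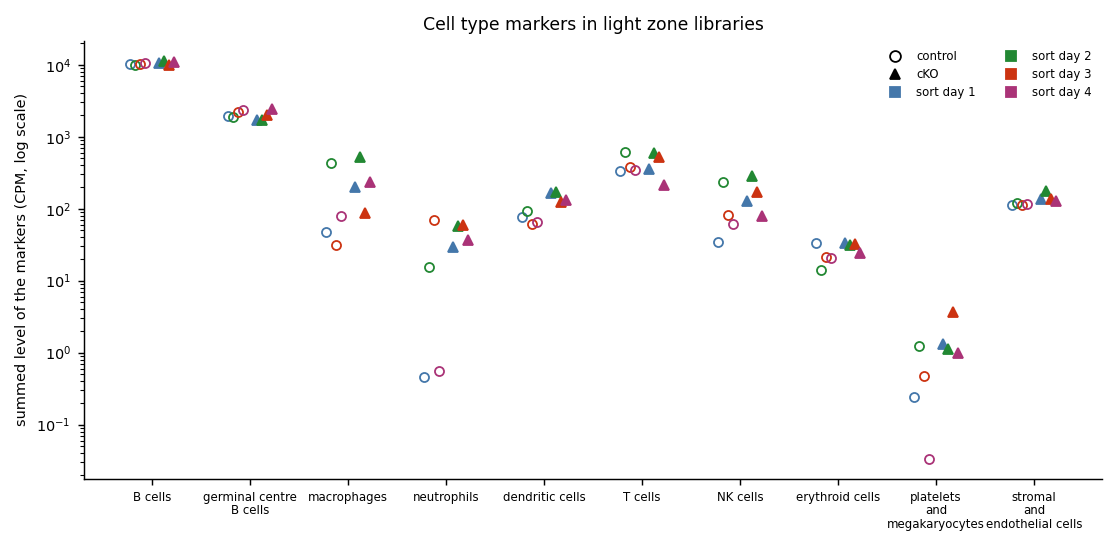
Summed level of each cell type's markers (CPM, log scale) in the 8 light zone libraries, open circles for control and filled triangles for cKO, coloured by sort day. B cell markers lie between 9810 and 11400 CPM in every library, and macrophage markers, between 30.9 and 519 CPM, are higher in cKO than in the control of the same day on all 4 days.

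Ptbp1, the targeted gene (chromosome 10, 79854432 to 79864435, GRCm38), fell in cKO cells. Expression of Ptbp1 came to 366, 353, 425 and 395 CPM in controls 1 to 4 and 95.7, 96.6, 122 and 83.0 CPM in cKO 1 to 4. The groups did not overlap, and cKO libraries held 25.8% of the control mean (log2 fold change -1.96 ± 0.085 (SE), edgeR adjusted p = 0.000128). The count covers the whole gene, so reads outside the deleted part are included in what remained. Ptbp2, the paralogue that PTBP1 keeps low in most cells outside the nervous system, rose 12.1-fold. It measured 16.7, 13.7, 8.71 and 13.8 CPM in controls 1 to 4 and 127, 144, 186 and 183 CPM in cKO 1 to 4 (log2 fold change 3.60 ± 0.23 (SE), edgeR adjusted p = 0.00111), with every cKO library far above every control. Ptbp3, the other paralogue in blood cells, measured 424, 371, 407 and 421 CPM in controls 1 to 4 and 368, 399, 436 and 419.6 CPM in cKO 1 to 4. Its groups overlapped and it was not called (log2 fold change -0.00 ± 0.067 (SE), edgeR adjusted p = 0.993). Ptbp1 and Ptbp2 kept their calls under all 14 alternative settings.

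Cd79a, which encodes the Ig-alpha chain of the B cell receptor complex and carries the Cre allele in cKO mice (chromosome 7, 24897497 to 24901858), fell to 50.6% of its control level. It measured 3013, 2747, 2661 and 2386 CPM in controls 1 to 4 and 1646, 1510.2, 1113 and 1198 CPM in cKO 1 to 4, without overlap (it fell by 1.00 ± 0.075 on the log2 scale, SE; edgeR adjusted p = 0.00218). It lost the call in 1 of 14 alternatives, the fit on male pools alone (adjusted p = 0.0791). Of its neighbours, Arhgef1 begins 0.01 Mb away and was called higher, and Plaur lies 0.44 Mb away and was called higher as well. Within 20 Mb of Cd79a, 23 of 372 tested genes were called (6.18%), beside 38 of 655 (5.8%) on the rest of chromosome 7 and 691 of 12505 (5.53%) on other chromosomes. Myc, the growth regulator that marks cells selected by T cells, was not called. It measured 131, 136, 147 and 116 CPM in controls 1 to 4 and 118, 135, 165 and 102 CPM in cKO 1 to 4, with overlap and a log2 fold change of -0.05 ± 0.077 (edgeR adjusted p = 0.788).

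**Figure D2:**
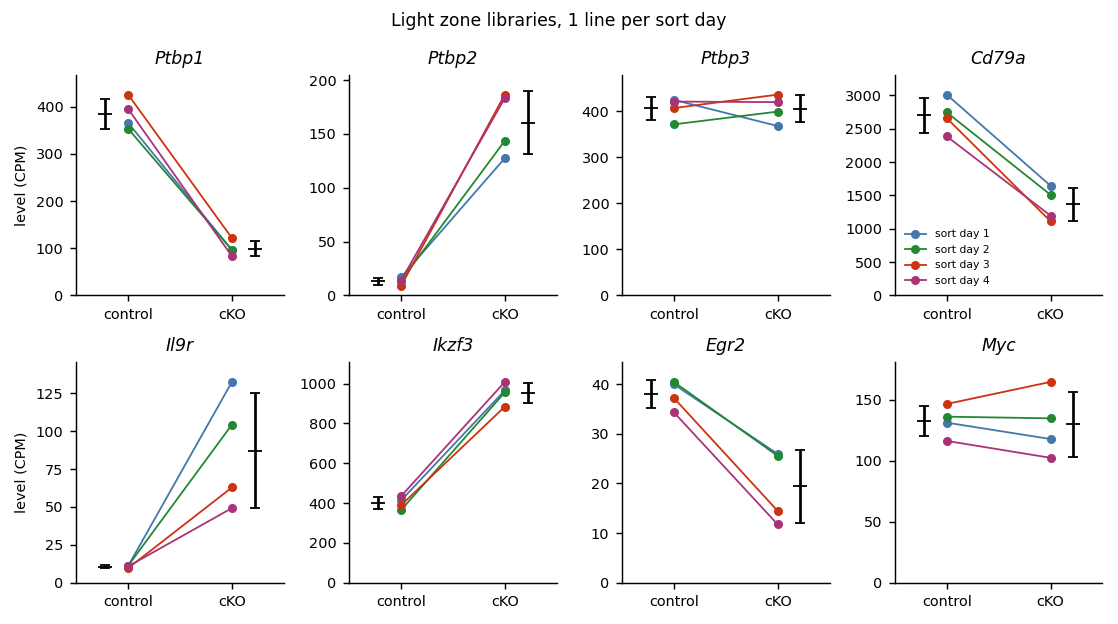
Levels (CPM) of 8 genes in the light zone libraries, with a line joining the control and cKO library of each sort day and black bars for mean ± SD (n = 4). Ptbp1 falls and Ptbp2 rises on every day, Il9r rises more on days 1 and 2 (132 and 104 CPM) than on days 3 and 4 (62.9 and 49.2 CPM), and Ptbp3 and Myc overlap.

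Across all genes, 763 of 14472 tested (5.27%) differed at an adjusted p under 0.05 (edgeR quasi-likelihood with sort day as a block). Of these 418 (2.89%) were higher and 345 (2.38%) lower in cKO cells. Changes were mostly small: the median size was 0.555 on the log2 scale, and 147 genes (123 higher, 24 lower) changed at least 2-fold. The sign was the same on all 4 days for 761 of the 763, a property the test itself favours. In 452 called genes the 2 groups did not overlap, while the groups did not overlap in 1303 (9.0%) of all genes tested. The median log2 fold change of all tested genes was 0.00421. The count of calls rested on the pairing and on all 4 days. Without the block 98 genes were called, and leaving out 1 day left 59 to 161 calls, fewest without day 4. A total of 49 called genes (40 higher, 9 lower) kept their call whichever day was left out, and 5 kept it under all 14 alternatives. Those 5 were Ptbp1, Ptbp2, Il9r, Ppfia4 and a gene without a symbol. Of the 106 called genes named by rule, 87 lost the call without at least 1 of the days. Among the 19 that kept it were Ptbp1, Ptbp2, Cd79a, Il9r, Ighe, Ighg3, Ppfia4, Plac8, Oas3, Carmil1, Ass1, Ppl, Galnt12, Unc45a, Gpr183, Ikzf3, S1pr1 and Flt3. None of the 106 had the opposite sign under any of the 14 settings.

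**Figure D3:**
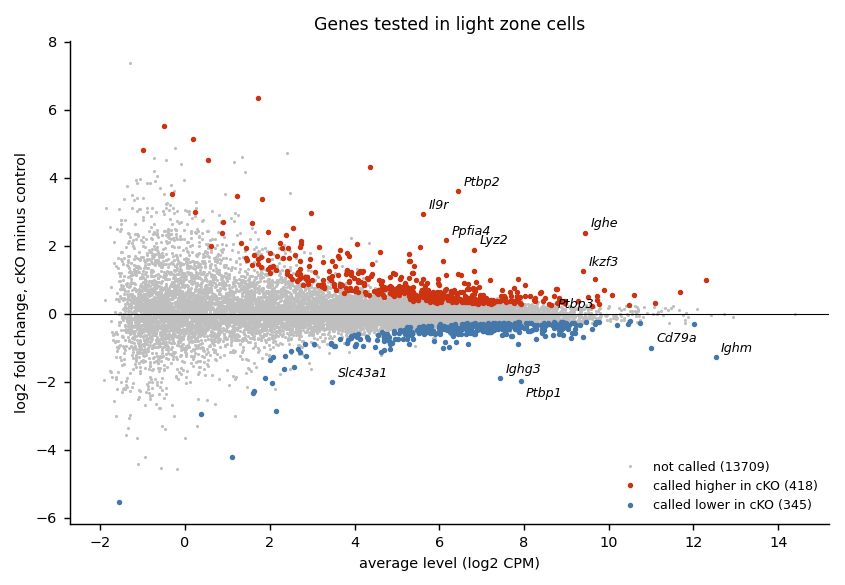
Log2 fold change of cKO against control for the 14472 genes tested, against average level (log2 CPM); red points are the 418 genes called higher, blue points the 345 called lower and grey points the rest. Called changes at high levels are small, with Ighe, Ikzf3, Cd79a and Ighm standing out among abundant genes.

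The largest rises were ranked among well expressed genes (average log2 CPM of at least 3) that have a symbol. They held a cytokine receptor, an immunoglobulin gene and genes of the cytoskeleton. A called gene without a symbol, left out of this ranking, rose from 1.99 to 39.3 CPM (log2 fold change 4.33, edgeR adjusted p = 6.46e-05). Il9r, the ligand-binding chain of the interleukin 9 receptor, measured 11.0, 11.2, 9.63 and 10.8 CPM in controls 1 to 4 and 132, 104, 62.9 and 49.2 CPM in cKO 1 to 4. It rose 8.17-fold (log2 fold change 2.93 ± 0.22 (SE), edgeR adjusted p = 0.00218), with no overlap. Ppfia4, a liprin scaffold protein best known from synapses, measured 29.6, 26.5, 24.9 and 23.2 CPM in controls 1 to 4 and 127, 127, 96.5 and 117 CPM in cKO 1 to 4, with no overlap (log2 fold change 2.16 ± 0.09 (SE), edgeR adjusted p = 0.000128). Ass1, the argininosuccinate synthase of arginine synthesis, rose from 6.4044 to 21.7 CPM (1.79 ± 0.16, adjusted p = 0.00442), and Ppl, the cytolinker periplakin, from 18.0 to 59.8 CPM (1.76 ± 0.13, adjusted p = 0.0021). Plac8 measured 17.0, 26.9, 14.9 and 13.9 CPM in controls 1 to 4 and 107, 105, 37.6 and 51.4 CPM in cKO 1 to 4 (1.97 ± 0.20, adjusted p = 0.00676), and was higher on the male days 1 and 2 than on days 3 and 4 in cKO. Carmil1, a regulator of actin capping, rose from 11.1 to 37.3 CPM. Ass1, Ppl, Plac8 and Carmil1 showed no overlap either, and all 4 kept their calls whichever day was left out. Cmya5, Lhfpl4 and Rhbdf1 rose from means of 5.75, 6.94 and 6.35 CPM to 18.4, 22.1 and 18.2 CPM. Cmya5 lost the call without day 4, Lhfpl4 without day 2, 3 or 4, and Rhbdf1 without day 1, 3 or 4.

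Chil3, Plaur and Lyz2, genes of macrophages and neutrophils, were also among the 15 largest rises, and their levels differed between days as well as between genotypes. Lyz2, which encodes lysozyme, measured 19.0, 265, 3.98 and 29.8 CPM in controls 1 to 4 and 116, 326, 36.3 and 105 CPM in cKO 1 to 4 (1.89 ± 0.42, adjusted p = 0.0485), so that control library 2 lay above 3 of the 4 cKO libraries. Chil3, a chitinase-like protein, measured 0.398, 10.2, 0 and 21.9 CPM in controls 1 to 4 and 2.94, 27.3, 1.39 and 69.0 CPM in cKO 1 to 4, again with overlap (2.04 ± 0.41, adjusted p = 0.0371). All 3 calls were lost without day 1 or without day 4. The summed macrophage markers given above were also higher in cKO on every day. Lyz2 is 1 of those 15 markers, so the sum is not separate from it. It made up 265 of 429 CPM in control library 2 and 326 of 519 CPM in cKO library 2. The part of macrophages in these rises was not tested. Cd68, a lysosomal protein abundant in macrophages and also made by other cells, measured 15.9, 27.0, 17.3 and 16.3 CPM in controls 1 to 4 and 46.5, 45.0, 32.7 and 45.6 CPM in cKO 1 to 4 without overlap (1.17 ± 0.16, adjusted p = 0.0135). Flt3, a cytokine receptor counted here as a dendritic cell marker, measured 66.8, 56.2, 49.2 and 55.9 CPM in controls 1 to 4 and 147, 123.29, 111 and 120.2 CPM in cKO 1 to 4 (log2 fold change 1.14 ± 0.064 (SE), edgeR adjusted p = 0.000514). It kept the call in 13 of 14 alternatives. None of the other 9 dendritic cell markers exceeded 13.5 CPM in any library.

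The largest falls among well expressed genes joined immunoglobulin genes to a mixed set. Slc43a1, a transporter of large neutral amino acids, measured 15.8, 19.989, 16.2 and 15.7 CPM in controls 1 to 4 and 2.24, 8.65, 8.39 and 1.60 CPM in cKO 1 to 4 with no overlap (log2 fold change -2.01 ± 0.42 (SE), edgeR adjusted p = 0.0401); its call was lost when any 1 day was left out. Trio, a guanine nucleotide exchange factor, fell from 33.4 to 15.7 CPM (-1.11 ± 0.13, adjusted p = 0.00966). Galnt12, which starts mucin-type O-glycans, fell from 90.3 to 45.3 CPM (adjusted p = 0.00473), and Unc45a, a chaperone of myosin that works with HSP90, from 98.5 to 50.3 CPM (-0.98 ± 0.11, adjusted p = 0.00955). Both kept the call whichever day was left out. Egr2, a transcription factor induced by the antigen receptor, measured 40.0, 40.4, 37.2 and 34.3 CPM in controls 1 to 4 and 25.9, 25.5, 14.5 and 11.8 CPM in cKO 1 to 4, with no overlap and lower cKO values on days 3 and 4 (-1.04 ± 0.18, adjusted p = 0.0256). Fah, Baiap2 and Tmem106c fell to 51.6%, 51.3% and 50.5% of control. The linker histone gene Hist1h1b fell from 34.4 to 17.2 CPM, and the light chain segments Igkv6-17 and Igkv4-59 to 52.7% and 51.7%. Histone genes and immunoglobulin segments share sequence with near-identical copies, so their counts are uncertain. Each call among Egr2, Fah, Baiap2, Hist1h1b and the 2 light chain segments was lost when any 1 day was left out.

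The heavy chain constant region genes, which give an antibody its class, moved in both directions. Ighm (class M, the class before switching) measured 8035, 8465, 7327 and 8511 CPM in controls 1 to 4 and 3668, 6209.9, 1821 and 3010.3 CPM in cKO 1 to 4. It fell on every day, with no overlap (log2 fold change -1.27 ± 0.22 (SE), edgeR adjusted p = 0.0256), and lost the call without day 1, 3 or 4. Ighg3 measured 163, 417, 222 and 307 CPM in controls 1 to 4 and 63.6, 80.1, 75.3 and 64.4 CPM in cKO 1 to 4 and fell to 25.6% (-1.89 ± 0.18, adjusted p = 0.00502), again with no overlap. Ighe (class E) had the largest rise of the 8 genes. It measured 117, 190.1, 402 and 223 CPM in controls 1 to 4 and 725, 1024, 1676 and 1205 CPM in cKO 1 to 4, so the lowest cKO library exceeded the highest control (log2 fold change 2.39 ± 0.10 (SE), edgeR adjusted p = 0.000128). Ighg1, the main class of the response to protein in alum in mice, measured 2212, 2387, 5718 and 3537 CPM in controls 1 to 4 and 4713, 6151, 7858 and 7481 CPM in cKO 1 to 4, with overlap through control library 3 (1.00 ± 0.13, adjusted p = 0.013). Ighg2b rose from 557 to 1092 CPM with overlap (1.03 ± 0.11, adjusted p = 0.00807), and Igha fell from 428 to 289 CPM with overlap (-0.65 ± 0.13, adjusted p = 0.0374). Ighg2c measured 118, 258, 238 and 79.965 CPM in controls 1 to 4 and 31.3, 369.5, 684 and 31.5 CPM in cKO 1 to 4; it was lower in cKO on days 1 and 4, higher on days 2 and 3, and not called (adjusted p = 0.827). Ighd was not called either (-0.62 ± 0.24, adjusted p = 0.176). Leaving out day 1 or day 4 ended the call of Ighg1, and leaving out any 1 day ended that of Igha, while Ighe, Ighg3 and Ighg2b kept theirs. Ighg1, Ighg2b, Igha, Ighd and Ighg2c were named after their values were seen. Reads from germline transcripts, switched antibody RNA and similar constant exons cannot be separated in these counts.

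**Figure D4:**
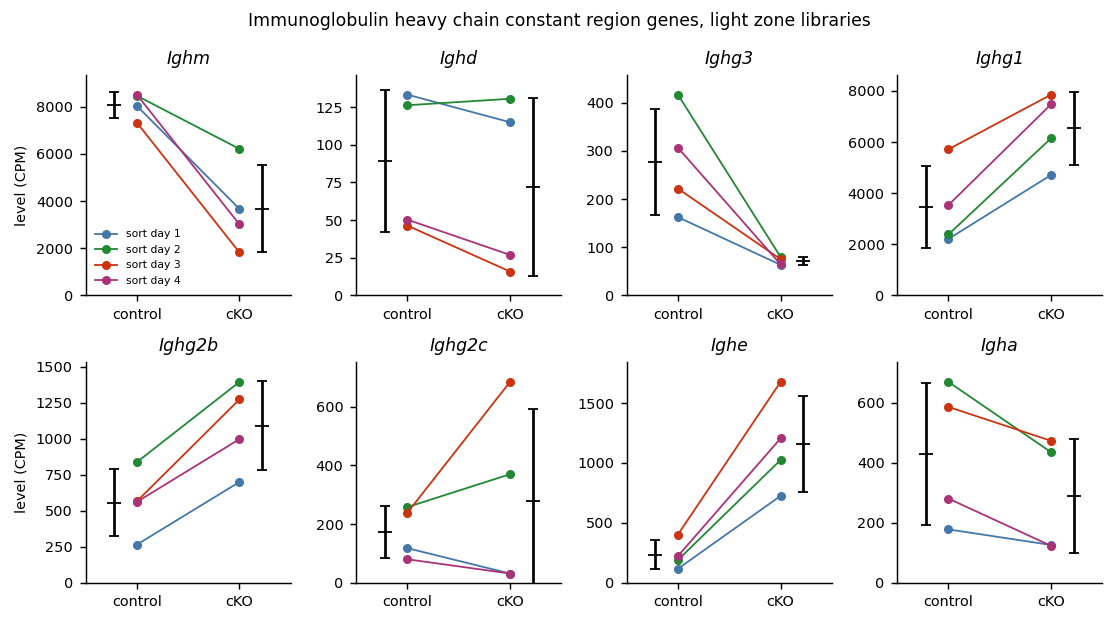
Levels (CPM) of 8 heavy chain constant region genes, with a line joining the control and cKO library of each sort day and black bars for mean ± SD (n = 4; the lower bar of Ighg2c is cut at 0). Ighm and Ighg3 fall and Ighe, Ighg1 and Ighg2b rise on all 4 days, while Ighg2c falls on 2 days and rises on the other 2.

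Interferon-stimulated genes, which interferon signalling switches on against viruses, were mostly higher in cKO cells. Of 45 listed genes 44 were tested, 41 had a positive log2 fold change, 15 rose and none fell, beside 2.89% and 2.38% of all genes tested. The list's median log2 fold change was 0.47, against 0.00421 for all tested genes, and the day medians were 0.402, 0.611, 0.316 and 0.626. Oas3, a sensor that makes short oligoadenylates from double-stranded RNA, measured 4.44, 6.41, 5.68 and 4.84 CPM in controls 1 to 4 and 13.5, 21.0, 21.7 and 23.4 CPM in cKO 1 to 4, with every cKO library above every control (log2 fold change 1.88 ± 0.17 (SE), edgeR adjusted p = 0.00473). Mx1, an antiviral GTPase, was very low in both groups and rose from 0.954 to 3.89 CPM (2.10 ± 0.36, adjusted p = 0.0252), and Slfn5 from 3.07 to 7.47 CPM (1.25 ± 0.23, adjusted p = 0.0279). Among the regulators, Irf7 and Irf9 rose from 63.8 to 100.0 CPM (0.64 ± 0.08, adjusted p = 0.0104) and from 79.7 to 116 CPM (0.54 ± 0.074, adjusted p = 0.0139). Ddx58, which encodes the RNA sensor RIG-I, rose from 22.2 to 46.1 CPM (adjusted p = 0.00955). Groups did not overlap for 12 of these 15 genes, the exceptions being Lgals3bp, Slfn8 and Cmpk2. That compares with 452 of all 763 called genes and 9.0% of all genes tested, and a call itself favours groups that do not overlap. Without the block 4 members were called, and leaving out 1 day left 2 to 8. The summed macrophage and NK cell markers were higher in cKO on the same 4 days, and their part in this rise was not tested. Irf7, Irf9, Ddx58, Slfn8, Cmpk2 and Oas1a were named after their values were seen.

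The promoters of called members were searched for the core of the interferon-stimulated response element, GAAA, then any 2 bases, then GAAA, on either strand. In RefSeq promoter windows of GRCm38.p6 (250 bases before to 50 after the start), 3.44% of 32851 windows held it. Of the 15 called genes 11 had an entry, and 5 of them held the letters (Oas1a, Oas3, Ddx58, Slfn5 and Slfn8). The share was 3.94% of tested genes with an entry and 7.49% of those called higher. No share is given over the whole list, since 33 of its 45 members had an entry, under the 80% set for such a check. Parts of the promoters of 4 of the called genes are shown, upstream of the start site, with the motif on either strand in capitals.
Oas1a (chr5:120907526-120907570, minus strand): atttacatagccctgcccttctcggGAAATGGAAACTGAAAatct
Oas3 (chr5:120777700-120777759, minus strand): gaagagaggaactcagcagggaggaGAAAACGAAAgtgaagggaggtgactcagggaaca
Slfn5 (chr11:82951922-82951981, plus strand): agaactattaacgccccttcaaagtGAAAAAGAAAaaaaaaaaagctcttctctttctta
Slfn8 (chr11:83020824-83020883, minus strand): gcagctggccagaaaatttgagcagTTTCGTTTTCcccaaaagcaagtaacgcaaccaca
In Oas1a 2 overlapping copies end 4 bases before the start, and in Oas3 the copy ends 65 bases before it. In Slfn8 the motif is on the opposite strand. Oas1a rose from 12.9 to 24.5 CPM without overlap (0.92 ± 0.15, adjusted p = 0.0235) and Slfn8 from 6.79 to 14.1 CPM with overlap (1.06 ± 0.20, adjusted p = 0.0322). A match in these windows is a description of the sequence, not a measured binding site.

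Genes of DNA replication were lower in cKO cells. All 46 listed genes were tested and all 46 had a negative log2 fold change (median -0.352, range -0.59 to -0.0295), of which 16 passed the test and fell, beside 2.38% of all genes. The day medians were -0.451, -0.504, -0.145 and -0.267, lower on the male days 1 and 2. Mcm5, a subunit of the helicase that unwinds DNA, measured 589, 523, 828 and 756 CPM in controls 1 to 4 and 396, 369, 648 and 582 CPM in cKO 1 to 4. Its levels differed between days in both groups and the groups overlapped, although each cKO library was below the control of its day (log2 fold change -0.45 ± 0.058 (SE), edgeR adjusted p = 0.0118). The helicase subunits Mcm6 and Mcm7 fell from 881 to 665 CPM (-0.44 ± 0.078, adjusted p = 0.0274) and from 471 to 370.1 CPM (-0.37 ± 0.072, adjusted p = 0.0332). Gins2, a partner of that helicase, fell from 47.2 to 32.9 CPM (-0.54 ± 0.10, adjusted p = 0.0344), and Cdc45, its other partner, from 121 to 87.4 CPM (-0.50 ± 0.10, adjusted p = 0.0335). Prim1, a primase subunit, fell from 129 to 91.5 CPM (-0.52 ± 0.10, adjusted p = 0.0344), and Rfc4, a subunit of the clamp loader, measured 112, 103, 128 and 138 CPM in controls 1 to 4 and 82.9, 60.2, 102 and 99.4 CPM in cKO 1 to 4 without overlap (-0.51 ± 0.086, adjusted p = 0.0252). None of the 46 was called without the block, and leaving out 1 day left 0 to 6 calls. Mcm3, Mcm5, Mcm6 and Mcm7 were named after their values were seen.

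E2F factors switch on many of these genes, and 37 of the 46 (80.4%) had a RefSeq promoter entry. The E2F letters TTTGGCGC, on either strand, were in 8 of the 37 (21.6%), beside 1.13% of the 9790 tested genes with an entry and 3.01% of the genes called lower. Of all 32851 promoter windows, 0.514% held them. A second form, TTTCCCGC, was in 6 (16.2%), beside 2.45% of tested genes, 9.02% of genes called lower and 1.07% of windows. The 2 forms are different strings, and a promoter can hold both, as that of Mcm3 does. Windows upstream of the start of 3 helicase genes that fell are shown, with the first form in capitals for Mcm5 and Mcm6 and the second for Mcm7.
Mcm5 (chr8:75109335-75109392, plus strand): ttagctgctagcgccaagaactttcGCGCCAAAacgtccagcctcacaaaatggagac
Mcm6 (chr1:128359720-128359777, minus strand): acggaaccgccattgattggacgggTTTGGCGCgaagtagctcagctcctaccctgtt
Mcm7 (chr5:138172016-138172073, minus strand): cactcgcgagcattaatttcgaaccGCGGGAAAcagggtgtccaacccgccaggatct
The copies in Mcm5 and Mcm7 are on the opposite strand. They end 141 and 157 bases before the start, and that of Mcm6 ends 39 bases before it.

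Genes of G2 phase and mitosis also lay below control. All 37 had a negative log2 fold change (median -0.2), and 5 fell (Kif2c, Nusap1, Aurkb, Cdk1 and Racgap1), beside 2.38% of all genes. Kif2c, a kinesin that takes microtubules apart, measured 66.1, 72.9, 122 and 119.7 CPM in controls 1 to 4 and 44.7, 42.2, 84.1 and 82.8 CPM in cKO 1 to 4 (log2 fold change -0.61 ± 0.075 (SE), edgeR adjusted p = 0.0106). Control and cKO overlapped, and days 3 and 4 were higher than days 1 and 2 in both genotypes. Nusap1, a spindle protein, fell from 221 to 149.8 CPM (-0.59 ± 0.067, adjusted p = 0.00886), and Aurkb, a mitotic kinase, from 223 to 167 CPM (-0.46 ± 0.082, adjusted p = 0.0279). The calls of Kif2c and Nusap1 were lost without day 4, those of Aurkb, Cdk1 and Racgap1 when any 1 day was left out, and all 5 without the block. The median was -0.0709 in females alone and -0.387 in males alone. Among G1 regulators, Cdk4 fell from 377 to 304 CPM (-0.32 ± 0.055, adjusted p = 0.0263) and Rb1, which encodes the restraint on E2F, rose from 27.4 to 44.8 CPM (0.70 ± 0.10, adjusted p = 0.0166). The other 12 tested members of that list were not called.

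Growth and metabolic genes fell in small numbers and by small amounts. Over all genes tested, 2.89% were called higher and 2.38% lower. In the list of MYC-regulated growth and ribosome biogenesis, 43 of 49 tested members were negative (median -0.185) and 5 fell. Odc1, the first enzyme of polyamine synthesis, measured 242, 228, 279 and 249 CPM in controls 1 to 4 and 143, 150.1, 204 and 148 CPM in cKO 1 to 4, with no overlap (log2 fold change -0.64 ± 0.071 (SE), edgeR adjusted p = 0.00851). Nop56 and Nop16, nucleolar factors, fell from 218 to 175 CPM and from 78.1 to 59.8 CPM, and the mitochondrial chaperonin Hspe1 from 82.3 to 63.6 CPM. The calls of Nop56, Nop16 and Hspe1 were lost when any 1 day was left out, and that of Odc1 without day 4. No member of this list was called without the block. Of 26 tested genes of mTORC1, amino acid uptake and ATF4, 5 fell and none rose (median -0.191). The 5 all make serine, glycine, one-carbon units or asparagine. Mthfd2 of mitochondrial folate metabolism fell from 105 to 76.6 CPM (-0.45 ± 0.066, adjusted p = 0.0167), and Shmt2, Psat1, Phgdh and Asns by 0.37, 0.41, 0.37 and 0.79 on the log2 scale. None of the 5 was called without the block. The calls of Mthfd2, Shmt2, Phgdh and Asns were lost when any 1 day was left out, and that of Psat1 without day 1, 2 or 4.

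In cholesterol and fatty acid synthesis 29 of 34 tested genes were negative (median -0.263) and 3 fell, beside 2.38% of all genes. All 3 are of the later steps from squalene to cholesterol. Lss, lanosterol synthase, measured 53.8, 40.7, 43.7 and 39.7 CPM in controls 1 to 4 and 23.8, 22.2, 34.4 and 25.5 CPM in cKO 1 to 4, without overlap (log2 fold change -0.76 ± 0.14 (SE), edgeR adjusted p = 0.0314). Cyp51 and Msmo1, which act on lanosterol and after it, fell from 281 to 195 CPM (-0.54 ± 0.11, adjusted p = 0.0354) and from 174 to 119 CPM (-0.54 ± 0.069, adjusted p = 0.0114). The calls of Lss and Cyp51 were lost when any 1 day was left out, and that of Msmo1 without day 3 or 4. No member of this list was called without the block, and DESeq2 called 10 lower and 1 higher. Of 7 genes of sterol efflux 2 rose and 1 fell, beside 2.89% and 2.38% of all genes. The exporters Abca1 and Abcg1 rose from 37.3 to 58.9 CPM and from 8.16 to 19.8 CPM (adjusted p = 0.0235 and 0.0272). Apoe fell from 819 to 521 CPM (-0.67 ± 0.087, adjusted p = 0.0117). The call of Abcg1 was lost when any 1 day was left out, that of Abca1 without day 1, 3 or 4, and that of Apoe without day 4. Without the block no gene of sterol efflux was called. Glycolysis as a list was near the background (median -0.0547), with 1 gene higher and 2 lower of 24. Slc2a3, the glucose transporter GLUT3, rose from 25.1 to 47.6 CPM (0.91 ± 0.12, adjusted p = 0.0133), and Pfkp and Pkm, enzymes of glycolysis, fell by 0.39 and 0.25 on the log2 scale.

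Antigen receptor signalling changed in single genes. Of 37 genes 3 rose and 3 fell (median 0.0695), beside 2.89% and 2.38% of all genes. Besides Cd79a, the complement receptor Cr2 measured 578, 548, 500.4 and 544 CPM in controls 1 to 4 and 391, 405, 375 and 289 CPM in cKO 1 to 4, without overlap (log2 fold change -0.58 ± 0.088 (SE), edgeR adjusted p = 0.019). The calcium-regulated factor Nfatc1 fell from 403 to 316 CPM (-0.35 ± 0.065, adjusted p = 0.0295). The inhibitory receptor Fcgr2b rose from 219.9 to 269 CPM (0.29 ± 0.059, adjusted p = 0.0372). The calls of Nfatc1 and Fcgr2b were lost without the block and when any 1 day was left out. That of Cr2 was lost without the block and without day 1, 3 or 4. Among 20 early response transcription factors edgeR called Egr1 and Egr2 lower and none higher. DESeq2 called 4 lower and 1 higher, and edgeR on all 16 libraries with the block called none. Both Egr calls were also lost without the block and when any 1 day was left out. Egr1 fell from 123.15 to 91.9 CPM (-0.43 ± 0.072, adjusted p = 0.0251). Of 20 NF-kB genes edgeR called Nfkbid, which encodes a nuclear I-kappa-B protein. DESeq2, like all 16 libraries with the block, called 2 further members higher. It measured 178, 149.8, 112 and 89.6 CPM in controls 1 to 4 and 88.5, 103, 57.1 and 41.7 CPM in cKO 1 to 4, below its day's control each time, though the groups overlapped (-0.90 ± 0.10, adjusted p = 0.00851), and the call was lost without day 4.

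Of the Ikaros family genes, 2 of 4 tested rose, beside 2.89% of all genes. Ikzf3, which encodes Aiolos, a zinc finger regulator of B cell maturation, measured 413, 364, 389 and 434 CPM in controls 1 to 4 and 965, 956, 884 and 1008 CPM in cKO 1 to 4, without overlap (log2 fold change 1.25 ± 0.057 (SE), edgeR adjusted p = 0.00014). It kept the call in 13 of 14 alternatives. Ikzf1, encoding Ikaros, rose from 364 to 439 CPM, at the edge of the threshold (0.27 ± 0.06, adjusted p = 0.0474). In the list of germinal centre B cell identity, Lmo2, a transcriptional adaptor, measured 289, 248, 269 and 243 CPM in controls 1 to 4 and 430.5, 414, 376 and 386 CPM in cKO 1 to 4, again without overlap (0.62 ± 0.062, adjusted p = 0.00676). Id3, Ezh2 and Mybl1 fell by 0.34, 0.36 and 0.54 on the log2 scale, and the other 19 of 23 were not called. Of 32 light zone genes 1 rose (Gpr183) and 3 fell (Egr1, Egr2 and Nfkbid), and of 18 dark zone genes 2 fell (Kif2c and Aurkb). Over all genes tested, 2.38% were called lower. In the list of T cell help and antigen presentation, Ciita, the master regulator of MHC class II, rose from 536 to 701 CPM (0.38 ± 0.054, adjusted p = 0.0148), and H2-Ob from 773 to 959.8 CPM (0.30 ± 0.068, adjusted p = 0.04996). The remaining 21 were not called. Of 34 cytokine receptor and JAK-STAT genes, 3 rose: Il9r, Ifngr1 (0.32 ± 0.067, adjusted p = 0.0415) and Tgfbr2 (0.31 ± 0.066, adjusted p = 0.044), beside 2.89% of all genes. The calls of Ifngr1 and Tgfbr2 were lost when any 1 day was left out, without the block, and with all 16 libraries.

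Some genes of memory and naive B cells and of migration were higher in cKO cells. Of 22 memory and naive genes 6 rose and 1 fell (median 0.467), and of 23 migration and positioning genes 7 rose (median 0.206). Over all genes tested, 2.89% were called higher and 2.38% lower. On both lists are 4 of the called genes. S1pr1, the receptor for the sphingosine phosphate that draws cells out of lymphoid organs, measured 42.8, 69.3, 30.4 and 30.6 CPM in controls 1 to 4 and 82.6, 135, 54.0 and 55.4 CPM in cKO 1 to 4 (log2 fold change 0.90 ± 0.073 (SE), edgeR adjusted p = 0.00274). Library 2 was the highest in each genotype and the groups overlapped, with cKO above control on every day. Gpr183, the oxysterol receptor EBI2 that guides B cells to the follicle edge, measured 49.2, 67.9, 49.1 and 43.5 CPM in controls 1 to 4 and 134, 171, 109 and 75.5 CPM in cKO 1 to 4, without overlap (1.18 ± 0.11, adjusted p = 0.00502). Klf2 and Klf3, transcription factors of quiescent lymphocytes, rose from 129.7 to 225 CPM (0.70 ± 0.14, adjusted p = 0.0362) and from 19.3 to 32.0 CPM (0.78 ± 0.14, adjusted p = 0.0272). The integrin genes Itgb7, Itga4 and Itgb2 rose by 0.74, 0.69 and 0.29 on the log2 scale. Without the block S1pr1, Gpr183, Klf2, Klf3 and the integrin genes all lost their calls. Those of Klf2, Klf3 and Itgb2 were also lost when any 1 day was left out. Itga4 lost its call without day 1, 3 or 4, and Itgb7 without day 4, while S1pr1 and Gpr183 kept theirs whichever day was left out. Arhgef1, which acts downstream of G-alpha-13 to confine germinal centre cells, measured 773, 924, 865 and 921 CPM in controls 1 to 4 and 1262, 1309.8, 1233 and 1320.1 CPM in cKO 1 to 4, without overlap (0.56 ± 0.056, adjusted p = 0.00677). The memory and naive list's day medians were 0.761 and 0.655 on male days and 0.134 and 0.0193 on female days, a difference that was not tested. T cells, NK cells and macrophages express several of these genes as well. Cd3e, which defines T cells, stood at 13.4, 45.2, 20.9 and 10.7 CPM in controls 1 to 4 and 28.5, 48.4, 43.0 and 11.3 CPM in cKO 1 to 4, with library 2 highest in both. The part of such cells in these rises was not tested.

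Among RNA-binding factors and their targets few genes were called. In the list of 14 genes that PTBP1 represses in other cells, 12 were tested and 3 rose, beside 2.89% of all genes. The median was 0.736, but 0.202 over the 9 members that passed the stricter filter on low counts, 0.402 in males and 0.452 in females. Besides Ptbp2 the genes that rose were Gabbr1, a GABA-B receptor subunit, at 11.9, 8.73, 6.06 and 5.27 CPM in controls 1 to 4 and 21.9, 18.9, 9.91 and 8.86 CPM in cKO 1 to 4 (log2 fold change 0.87 ± 0.15 (SE), edgeR adjusted p = 0.0273), and Vamp2, a vesicle SNARE protein, which rose from 62.3 to 93.6 CPM (0.61 ± 0.11, adjusted p = 0.0307). The calls of Gabbr1 and Vamp2 were lost without the block and when any 1 day was left out, and that of Ptbp2 was kept. Of 25 hnRNP genes 22 were negative (median -0.176) and 3 fell, beside 2.38% of all genes. They were Hnrnpab (-0.41 ± 0.069, edgeR adjusted p = 0.0249), Hnrnpa2b1 and Pcbp1. Of 12 SR factors edgeR called Srsf2, which fell from 388 to 307 CPM (-0.35 ± 0.06, adjusted p = 0.0256), while DESeq2 called 6 lower and the call was lost when any 1 day was left out. Of 12 tested MBNL, RBFOX, CELF and ELAV regulators edgeR called Celf2, which rose from 196 to 253 CPM (0.37 ± 0.058, adjusted p = 0.0206). Of 24 tested p53 targets Ccng1 and Rrm2b rose, and of 20 plasma cell genes Ly6c2 rose while Mzb1 and Derl3 fell. In edgeR no gene of the BCL2 family (16 tested, 3 at an unadjusted p under 0.05) or of somatic hypermutation and mismatch repair (19 tested, 9 at that level) was called. DESeq2 called 3 of each list, and the stricter filter on low counts 1 of each. Bcl2a1d (-0.36 ± 0.086, adjusted p = 0.0589) and Bcl2 (0.56 ± 0.15, adjusted p = 0.0832) came closest in the first, and Exo1 (-0.38 ± 0.092, adjusted p = 0.0595) and Rif1 (-0.23 ± 0.061, adjusted p = 0.0798) in the second. Counts per gene do not show exon use, so changes in splicing are outside these values.

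PTBP1 binding was read from iCLIP, which maps crosslinked positions, in splenic B cells cultured with lipopolysaccharide for 48 h, not in germinal centre cells. Sites of the authors' pooled list (244659 positions) were assigned to RefSeq gene spans, on either strand since the strand was at hand for 9921 of the 13532 tested genes placed. At least 1 site fell in 232 of 410 genes called higher (56.6%, 95% Wilson interval 51.7 to 61.3), in 226 of 342 called lower (66.1%, 60.9 to 70.9) and in 48.9% of all placed genes. Sites are found more often in abundant transcripts, and the median control level was 36.8, 126 and 23.2 CPM in these sets. Among the genes with the highest control levels (over 71.1 CPM) the shares were 77.2% of genes called higher, 74.8% of genes called lower and 78.7% of all. Between 23.2 and 71.1 CPM they were 64%, 58.8% and 61%. Between 3.25 and 23.2 CPM they were 39.1%, 23.5% and 39.0%, and below 3.25 CPM only 2 placed genes were called lower. With a site in at least 2 of the 5 replicate lists required, the shares over 71.1 CPM were 50.4% (41.8 to 58.9), 36.1% (30.3 to 42.4) and 43.4%. They were 30.4%, 20.6% and 25.4% between 23.2 and 71.1 CPM, and 12.2%, 8.82% and 12.7% between 3.25 and 23.2 CPM. In each of these ranges, also that over 71.1 CPM, the intervals of genes called higher and lower overlapped. Over 71.1 CPM the overlap was narrow, from 41.8 to 42.4. The intervals cover counting error only. Gene span differed as well. Over 71.1 CPM its median was 13.8 kb for genes called lower and 22.9 kb for all, and longer than both for genes called higher. A longer span has more room for sites, and its part in these shares was not tested.

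Single genes differed widely. Ptbp2 held 138 sites with 220 cDNAs and had sites in all 5 replicate lists, and Ptbp3 held 184 sites. Ikzf3 held 267 sites with 404 cDNAs, in 4 of the replicate lists, over a span of 81422 bases. Ptbp1 itself held 26 sites and Celf2 392, over a span of 856648 bases. Il9r held 5 sites, none of them in a replicate list, and no site was listed in Oas3 or Slc43a1. Il9r and Oas3 are low in the light zone control libraries, and no level was measured in the cultured cells.

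The same test in the dark zone libraries of these 8 pools called 45 of 14550 genes (0.309%). Of these, 35 were also called in the light zone, which is 77.8% of the dark zone calls and 4.59% of the light zone calls. Both sets come from the same pools of mice, so they are not independent. In the dark zone the log2 fold change was -2.10 ± 0.10, adjusted p = 0.00136 for Ptbp1, 3.73 ± 0.19, adjusted p = 0.00136 for Ptbp2 and 1.03 ± 0.06, adjusted p = 0.00327 for Ikzf3. Ighe changed by 3.87 ± 0.35, adjusted p = 0.0277 there, Flt3 by 0.44 ± 0.09, adjusted p = 0.12 and Ighm by -0.46 ± 0.27, adjusted p = 0.5. The difference between zones was tested itself in all 16 libraries with the pool as a block. No gene of 15789 (0.00%) passed in edgeR, 1013 had an unadjusted p under 0.05, and DESeq2 called 40. Among genes called in the light zone, 182 had an unadjusted interaction p under 0.05 in edgeR. Those genes were chosen by their change in light zone libraries that also enter this test. That choice favours small interaction p-values, so the count does not measure dependence on the zone. The larger number of calls in the light zone does not by itself show a difference between the zones for any named gene. List medians in the dark zone were -0.151 for DNA replication, -0.0461 for G2 and mitosis and 0.529 for interferon-stimulated genes, beside 0.00606 for all genes.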

How the data were processed

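The deposited mRNA values are raw counts per Ensembl gene, made by the authors with Trim Galore 0.4.2, HISAT2 and HTSeq on GRCm38, per the submitters' processing notes. No strand setting or annotation release is given in the sources used here, so overlapping, antisense and near-identical genes are uncertain. Summary lines that name no gene held 41.4% to 49.8% of entries per library and were left out. The deposited iCLIP score is a signed cDNA count per position (the sign gives the strand), kept by the authors at a false discovery rate under 0.05 on mm10, per the file headers.

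The 8 light zone libraries were fitted by edgeR's robust quasi-likelihood method (edgeR 4.0.16 under R 4.3.3), two-sided, with sort day as a block and genotype. Genes passed filterByExpr at 10 counts, and libraries were scaled by TMM. A call is a Benjamini-Hochberg adjusted p under 0.05 over all 14472 genes. The SE was derived from the fold change and its F statistic. All adjusted p-values in the text are edgeR's unless DESeq2 1.42.0 is named. The labels give the replicate number as the sort day, and same-numbered control and cKO libraries deviated together (r = 0.363, 0.443, 0.404 and 0.306, others -0.274 to 0.169). With sort day as a block, the p-values weigh the change against how far the cKO minus control difference varied between the 4 days. They do not measure the spread between pools within a group. Day medians are over log2 differences with a pseudocount of 0.5 CPM. The procedure was tested on simulated data.

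Named genes were Ptbp1, Ptbp2, Ptbp3, Cd79a and Myc, and the 15 largest called rises and falls. These rises and falls were ranked among genes with a symbol, an average log2 CPM of at least 3 and 1 sign on all days. Called list members were also named (the 4 largest where over 8), and the 2 of smallest p where none was called. The comparison and the lists were chosen with earlier results of these data known. A total of 14 alternative settings were run. Some called genes are counted but not reported by name here. Figures used matplotlib 3.10.9.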

Additional observations from a re-analysis of the deposited data

Results flagged for a closer look

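Among 256 groups of 4 libraries tested (named genes and summed markers, control and cKO apart), 18 (7.03%) held a library whose gap to the others passed Dixon's 95% value for 4 values. Chance alone gives about 5%. Control library 2 was the high one for Lyz2 (265 CPM), Cd68 (27.0 CPM), Ltf (0.465 CPM), Lcn2 (0.432 CPM), summed macrophage markers (429 CPM) and summed T cell markers (613 CPM). The same library set the gap of several myeloid genes at once, so these groups are not separate events. For genes the report turns on, Ass1 reached 9.03 CPM in 1 control library and Slc43a1 20 CPM in another. Nfatc1 had 1 low cKO library at 266 CPM, Odc1 1 high cKO library at 204 CPM and Msmo1 1 low control library at 129 CPM. Mzb1 had 1 high cKO library at 489 CPM, and Cd68 1 low cKO library at 32.7 CPM. Among erythroid and platelet genes, Klf1 had a high control at 7.59 CPM, Hbb-bt a high control at 21.4 CPM and Itga2b a high cKO at 2.78 CPM. Summed erythroid markers had a low cKO library at 24.4 CPM, and summed platelet markers a high cKO library at 3.64 CPM. No cause of these gaps was tested.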

How the results depend on the processing

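The number of calls moved with the pairing, the tool and the number of days. Without the replicate block 98 genes were called (70 higher, 28 lower) on the 8 light zone libraries, and 171 (109 and 62) with all 16 libraries. DESeq2 with sort day called 1822 (1017 and 805). Leaving out 1 day gave 59 to 161 calls (49 to 107 higher, 10 to 54 lower), the fewest without day 4. Males alone gave 6 calls (5 and 1) and females alone 33 (21 and 12), with 2 libraries a group. All 16 libraries with the replicate block (868), the 2 other scalings (759 and 773), no filter (806) and a stricter one (1014) stayed within 1.5 times the 763 reported. For the difference between zones, edgeR called 0 to 1 genes when 1 day was left out (1 without day 3), 0 without the pool as replicate block, and DESeq2 40. Of 106 called named genes, 24 kept the call without the block, and 32, 38, 39 and 20 without days 1, 2, 3 and 4. Those that lost it without day 4 alone were Arhgef1, Cmya5, Lmo2, Trio, Apoe, Itgb7, Kif2c, Nusap1, Nfkbid and Odc1. With the calls spread this way, genes near the threshold are the least certain at this depth and number of pools.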

Other observations

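Several gene families outside the lists also held called members in light zone cells; they were chosen after their values were seen, and are given beside the 2.89% of genes called higher and 2.38% called lower. A set of 13 chaperone genes held HSP90, which folds kinases and steroid receptors, its co-chaperones and some genes of the HSP70 system. All were negative (median -0.292) and 7 fell, with Hsp90ab1 at -0.29 and Fkbp4 at -0.43 on the log2 scale. Hspa2, of the HSP70 family, is among the 7. All 8 condensin genes, which compact mitotic chromosomes, were negative (median -0.33) and 5 fell, among them Ncaph (-0.45) and Smc2 (-0.41). Of 13 LSM genes, whose products form rings on small RNAs, 4 fell (median -0.23), and of 38 proteasome genes 37 were negative with 2 called (median -0.13). Of 39 histone cluster genes 33 were negative (median -0.635) and 4 fell; copies of these genes share reads.

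In the other direction, of 12 HIN-200 genes, which are induced by interferon and include DNA sensors, 4 rose (Ifi203, Ifi208, Ifi206 and Mndal) and Aim2 fell by 0.74 on the log2 scale. Of 17 MHC class I genes 5 rose, among them B2m (0.26) and H2-K2 (0.57), and these genes share sequence with close copies. Annexin genes Anxa6 (0.77) and Anxa5 (0.58), of 10 tested, rose, as did Anxa1. The macrophage and NK cell marker sums were higher in cKO on the same days, and their part in these rises was not tested.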
